A study of Homo sapiens with 8 samples.

Results

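The 10 genes described here encode heat shock proteins and small chaperones. They were HSPA1A, HSPA1B, HSPA8, HSPA5, HSPH1, DNAJB1, HSP90AA1, HSPB1, HSPB8 and CRYAB, 10 of the 60725 genes in a table of RNA-seq read counts. They were chosen by name, with earlier results of these data known. Polyadenylated RNA had been sequenced from HAP1 cells, a near-haploid human cell line derived from a chronic myeloid leukemia, after CRISPR interference (CRISPRi) against a subunit of the negative elongation factor NELF. All libraries came from 1 monoclonal HAP1 line that stably expressed dCas9-BFP-KRAB, a catalytically dead Cas9 fused to a repressor domain, under an EF1a promoter. The control libraries (n = 3) carried a lentiviral guide RNA against ADAM22, the NELFE knockdown libraries (n = 3) a guide RNA against NELFE, and the NELFB knockdown libraries (n = 2) a guide RNA against NELFB. All cells were selected with puromycin and harvested 144 h after transduction. Each target had a single guide RNA and the parental line was a single clone, which limits the groups as models of NELF loss. Each library held 22037423 to 24444185 counts.

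Heat shock proteins bind unfolded or partly folded proteins. HSP70 proteins hold and release their clients in a cycle driven by ATP, in which HSP40 proteins start the cycle, HSP110 proteins exchange the nucleotide, and HSP90 takes over clients such as kinases and receptors, while small heat shock proteins hold unfolded clients without using ATP. Many of these genes are targets of the transcription factor HSF1, which binds heat shock elements, and stress-inducible HSP70 is the classical example of a gene whose RNA polymerase II pauses just downstream of the start site, a step in which NELF takes part.

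For HSPA1A, HSPA1B, HSPB8, HSP90AA1, DNAJB1 and HSPA5, the 150 bases upstream of the RefSeq transcription start (GRCh38.p14) are printed 5′ to 3′, because they show the letters of the element that HSF1 is known to bind, or in HSPA5 their absence, in genes whose RNA rose, fell or did not pass the test. Capitals mark the core GAANNTTC of the heat shock element, in which N is any base. HSPA1A and HSPA1B show how alike the promoters of a gene pair can be.
HSPA1A, chr6:31815393-31815542, plus strand: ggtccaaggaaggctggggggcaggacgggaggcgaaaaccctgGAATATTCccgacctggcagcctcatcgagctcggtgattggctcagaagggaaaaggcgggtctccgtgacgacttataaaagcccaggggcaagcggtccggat
HSPA1B, chr6:31827588-31827737, plus strand: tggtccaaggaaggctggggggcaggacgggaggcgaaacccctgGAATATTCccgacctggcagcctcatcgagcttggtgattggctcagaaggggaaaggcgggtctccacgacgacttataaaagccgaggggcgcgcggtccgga
HSPB8, chr12:119178781-119178930, plus strand: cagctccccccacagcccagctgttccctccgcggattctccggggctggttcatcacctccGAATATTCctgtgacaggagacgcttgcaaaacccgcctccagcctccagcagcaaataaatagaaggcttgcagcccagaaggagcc
HSP90AA1, chr14:102087045-102087194, minus strand: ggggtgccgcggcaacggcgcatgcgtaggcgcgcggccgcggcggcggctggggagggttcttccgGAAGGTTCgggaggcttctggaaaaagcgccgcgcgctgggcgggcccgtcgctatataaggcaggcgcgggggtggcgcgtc
DNAJB1, chr19:14518398-14518547, minus strand: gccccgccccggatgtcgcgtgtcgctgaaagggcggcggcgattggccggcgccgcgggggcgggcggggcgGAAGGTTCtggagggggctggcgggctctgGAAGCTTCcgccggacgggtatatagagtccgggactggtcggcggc
HSPA5, chr9:125241344-125241493, minus strand: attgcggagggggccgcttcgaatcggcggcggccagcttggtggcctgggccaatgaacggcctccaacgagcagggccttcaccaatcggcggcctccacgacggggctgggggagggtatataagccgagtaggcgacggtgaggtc

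The reference table of promoters held windows for 9 of the 10 genes, all but CRYAB. In windows from 250 bases upstream to 50 bases downstream of the start, 7 of the 9 genes had at least 1 match to GAANNTTC, which reads the same on both strands. Of all 35116 RefSeq promoter windows of this length, 6.77% had such a match. In 3 of the 9 genes, HSPA8, DNAJB1 and HSPB8, there were 2 or more matches, against 0.393% of all windows. HSPA5 and HSPH1 had none, but the RefSeq start used for the HSPH1 window was 484 bases from the start of its GENCODE canonical transcript, whereas for the other 8 genes the RefSeq start used was the same as the canonical one. Several of the genes have other annotated starts, which were not examined. The HSPA1A and HSPA1B windows were identical at 277 of 300 bases (92.3%), and each had its core as GAATATTC, 106 and 105 bases upstream of the start. The first of the cores in HSPB8, 88 bases upstream, had the same letters, and HSP90AA1 had GAAGGTTC at 83 bases upstream. On either strand, TATAAA was found in 2 of the 9 windows (HSPA1A and HSPA1B, against 11.5% of all windows) and CCAAT in 5 of the 9 (against 34.6%), with 5 matches in HSPA5. GAANNTTC and CCAAT were present both in genes that were called and in genes that did not pass the test, and a match describes a sequence, not a bound site.

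The guide RNA targets were examined first, in counts per 1000000 reads (CPM) scaled by the trimmed mean of M values. NELFE was 50.5, 49.4 and 48.1 CPM in the control libraries and 2.41, 2.37 and 2.98 CPM in the NELFE knockdown libraries. NELFB was 74.4, 72.7 and 79.1 CPM in the control libraries and 3.07 and 2.78 CPM in the NELFB knockdown libraries. Each target was thus far below control in the libraries labelled for it (log2 fold change -4.26, edgeR adjusted p = 2.15e-08, for NELFE and -4.69, edgeR adjusted p = 4.02e-09, for NELFB). ADAM22, the target in the control cells, was 13.7, 12.9 and 11.3 CPM in the control libraries and 29.9 to 47.4 CPM in the 5 knockdown libraries. The blood lineage markers HBG1 and MPO were at 0 in all 8 libraries, and the leukocyte marker PTPRC had at most 2 reads in a library. The summed blood marker level was 0.219 to 3.24 CPM, with CD34 the most abundant marker in 4 of the 8 libraries and GATA1 or CD33 in the other 4, while VIM reached 327 to 503 CPM and SOX2 443 to 1043 CPM.

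Libraries of one group differed from each other in heat shock gene level, and this has to be known before any change is read. The summed level of the 10 genes was 5903, 8512 and 9980 CPM in the control libraries, 5879, 5955 and 8160 CPM in the NELFE knockdown libraries, and 6727 and 6938 CPM in the NELFB knockdown libraries. Relative to the mean of the control group on a log2 CPM scale, control replicate 1 was lower by -0.66 for HSPA8, -0.53 for HSPH1, -0.40 for DNAJB1 and -1.97 for CRYAB. Control replicate 3 was above that mean for all 10 genes, and NELFE knockdown replicate 3 was above the mean of the NELFE knockdown group for all 10. The 2 NELFB knockdown libraries deviated from their mean by at most 0.12, except in CRYAB (0.38) and HSPB8 (0.23). In a principal component analysis of all genes, the first component (52.4% of the variance) separated control from knockdown libraries. Control replicate 1 (27.6), control replicate 3 (-18.5) and NELFE knockdown replicate 3 (-26.3) lay furthest out on the second component (20.2%). The share of counts from mitochondrial genes was 4.62%, 3.72% and 3.48% in the control libraries and 4.26% to 5.01% in the knockdown libraries. The part of these shares in the gene levels was not tested.

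**Figure D1:**
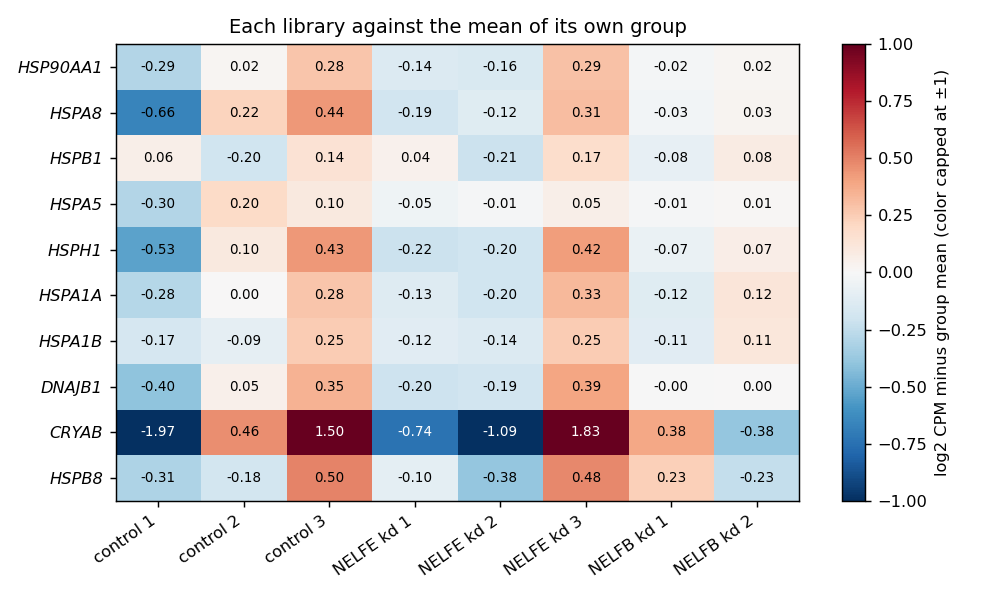
Heat map of the 10 genes (rows) in the 8 libraries (columns, kd for knockdown), with log2 CPM minus the mean of the library's own group written in each cell and the color capped at 1. Control 3 and NELFE kd 3 were above their group mean in every row, and the widest spread was in CRYAB, from -1.97 to 1.83.

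The levels of the genes in control cells spanned a wide range. Per length, in TPM, transcripts in each 1000000, from counts and exon lengths, HSP90AA1 stood first with 3059 ± 551 TPM (SD, n = 3) and HSPA8 second with 2471 ± 849 TPM. Then came HSPB1 with 331 ± 38.5 TPM, HSPA5 with 298 ± 49.0 TPM and HSPH1 with 268 ± 82.0 TPM. HSPA1A (96.3 ± 17.4 TPM), HSPA1B (74.1 ± 10.9 TPM) and DNAJB1 (55.0 ± 13.2 TPM) followed, ahead of CRYAB (4.59 ± 4.34 TPM) and HSPB8 (0.393 ± 0.301 TPM). Neighbors in this order overlapped between libraries, except that HSPA8 was above HSPB1, HSPH1 above HSPA1A, and DNAJB1 above CRYAB in all control libraries. Among these genes HSP90AA1 and HSPA8 were thus the most abundant, and HSPB8 the least. These exon lengths join all annotated transcripts of a gene, and the levels depend on that choice. With the length of the canonical transcript alone for these 10 genes, an alternative chosen after seeing the data, HSPA8 (5293 TPM) stood above HSP90AA1 (4831 TPM) and DNAJB1 (201 TPM) above HSPA1A (96.4 TPM). STAR counted only reads with a single alignment, and when only the canonical positions whose 65-base sequence is unique in the genome were used, every level was 1.63 to 6.22 times as high, HSPA8 again stood first (6193 TPM, against 5771 TPM for HSP90AA1), and HSPA1A (386 TPM) stood above DNAJB1 (209 TPM). The lengths of all other genes were kept, so only the order of the 10 genes is to be read from these values.

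**Figure D2:**
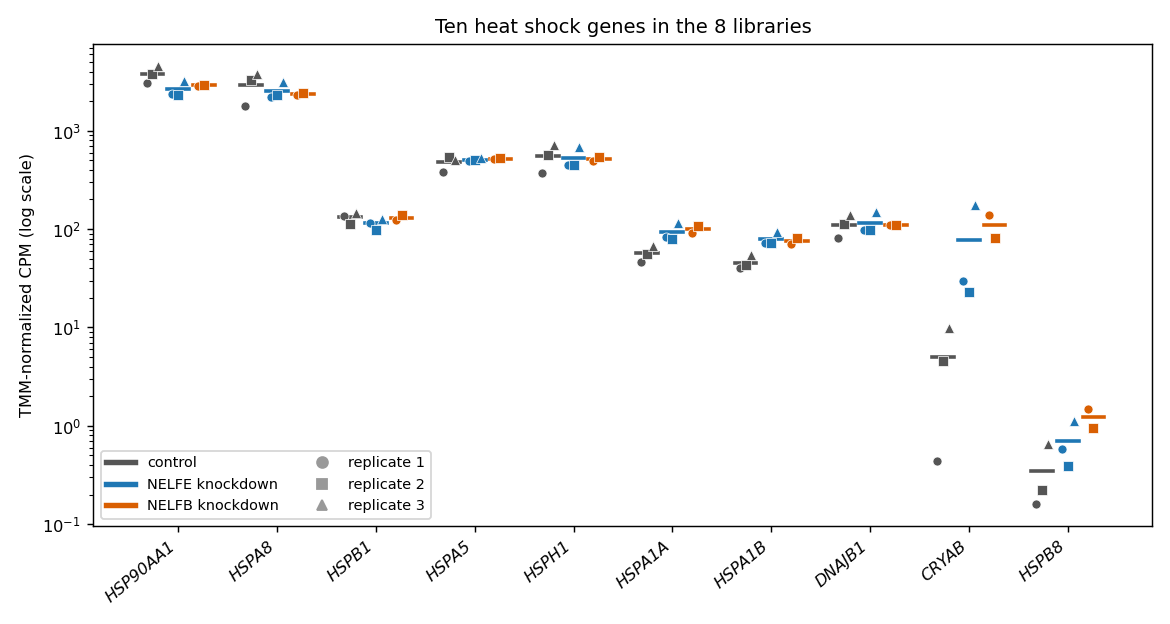
TMM-normalized CPM of the 10 genes on a log axis, in descending order of control TPM; each point is 1 library, colored by group and shaped by replicate number, and each bar is a group mean. The knockdown libraries lay above all control libraries in HSPA1A, HSPA1B and CRYAB, and the groups overlapped in the other 7 genes.

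After NELF knockdown a few of the heat shock genes changed and most did not pass the test. With the 5 knockdown libraries set against the 3 control libraries, HSPA1A, HSPA1B and CRYAB rose, HSP90AA1 fell, and HSPA8, HSPA5, HSPH1, DNAJB1, HSPB1 and HSPB8 did not pass the threshold (edgeR quasi-likelihood test, adjusted p under 0.05, n = 3 and 5). This made 3 of 10 genes called higher, where 13.3% of all 16367 genes tested were called higher, and 1 of 10 called lower, where 12.7% were. The median log2 fold change of the 10 genes was 0.07, against -0.0021 over all genes tested. In 3 of 10 genes all knockdown libraries were above all control libraries, against 14.7% of all genes tested. None of the 10 had all knockdown libraries below all control libraries, against 14.0%. For NELFE knockdown alone, 2 of 10 were called higher (7.92% of 16852 genes) and 1 of 10 lower (7.04%). For NELFB knockdown alone, 3 of 10 were called higher (10.6%). In NELFB knockdown no gene of the 10 was called lower by edgeR (8.88% of all genes), with 1 at an unadjusted p under 0.05 and 0 called by DESeq2. The knockdowns were compared with the same control libraries, so these counts are not independent of each other. The genes were also chosen with earlier results of these data known, so the shares do not test whether they differ from other genes. In bulk RNA, a change in every cell and a change in the share of cells that express a gene cannot be told apart.

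HSPA1A and HSPA1B encode the stress-inducible cytosolic HSP70. They are single-exon genes that lie on the plus strand of chromosome 6 (GRCh38), HSPA1A at chr6:31815543-31817946 and HSPA1B at chr6:31827738-31830254. HSPA1A was 45.9, 56.1 and 68.0 CPM in the control libraries, 83.7, 79.5 and 115 CPM in the NELFE knockdown libraries, and 91.2 and 108 CPM in the NELFB knockdown libraries. HSPA1B was 40.2, 42.6 and 54.1 CPM in the control libraries, 72.4, 71.5 and 93.7 CPM in the NELFE knockdown libraries, and 70.2 and 82.1 CPM in the NELFB knockdown libraries. For both genes the lowest knockdown library stood above the highest control library, which was control replicate 3.

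HSPA1A rose 1.68-fold in the combined comparison (95% interval 1.35 to 2.10, log2 fold change 0.75 ± 0.14 (SE), edgeR adjusted p = 0.00400). HSPA1B rose 1.71-fold (95% interval 1.43 to 2.05, log2 fold change 0.77 ± 0.12, edgeR adjusted p = 0.00124). Each was called in both single knockdowns, with log2 fold changes of 0.71 and 0.81 for HSPA1A (edgeR adjusted p = 0.0187 for NELFE, 0.0124 for NELFB) and of 0.79 and 0.74 for HSPA1B (edgeR adjusted p = 0.00581 and 0.00872). Their mRNAs are so alike that, of the 65-base positions in the transcript, only 600 of 2336 (25.7%) in HSPA1A and 717 of 2453 (29.2%) in HSPA1B were unique, 1736 positions being common to the pair. The single values therefore come from a minority of the transcript and the split between the genes is uncertain. Summed, the pair rose by a log2 fold change of 0.76 ± 0.13 (edgeR adjusted p = 0.00205). In the combined comparison, both were called in all 8 fits that each left out 1 library. In NELFB knockdown the calls were lost when either NELFB library was left out (HSPA1A, edgeR adjusted p = 0.0696 without replicate 1 and 0.109 without replicate 2; HSPA1B, 0.0544 and 0.0889), and in NELFE knockdown the call of HSPA1A was lost without control replicate 2 (edgeR adjusted p = 0.0658).

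The pair lies 121833 bases (from the end of HSPA1B) from the NELFE gene on the same chromosome. Next to HSPA1A, with its canonical start 260 bases away on the opposite strand, lies HSPA1L, a testis-enriched HSP70. It was 2.28, 2.75 and 3.06 CPM in the control libraries and 1.50 to 2.01 CPM in the 5 knockdown libraries, so the neighbor of a gene that rose was lower (log2 fold change -0.55, edgeR adjusted p = 0.0379). The call of HSPA1L held in 2 of 8 fits that each left out 1 library.

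**Figure D3:**
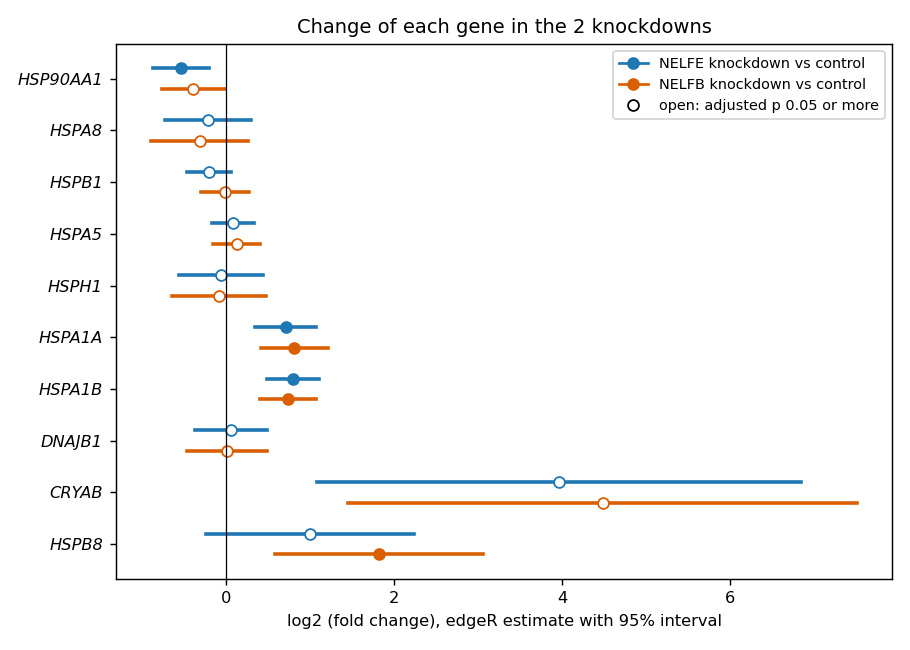
Log2 fold change of each gene in NELFE and NELFB knockdown against control, with approximate 95% intervals derived from the edgeR fit. Filled points had an adjusted p under 0.05. HSPA1A and HSPA1B were called in both knockdowns, HSP90AA1 in NELFE and HSPB8 in NELFB knockdown, and the CRYAB intervals were the widest.

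HSPA8 encodes the constitutive cytosolic HSP70 (chr11:123057489-123063230, minus strand). It was 1772, 3261 and 3780 CPM in the control libraries, 2183, 2300 and 3099 CPM in the NELFE knockdown libraries, and 2307 and 2405 CPM in the NELFB knockdown libraries. All knockdown libraries lay between control replicate 1 and control replicates 2 and 3. The log2 fold change was -0.25 (95% interval -0.72 to 0.21, edgeR adjusted p = 0.405). Without control replicate 1 it was -0.52 and passed the threshold (edgeR adjusted p = 0.0129), so that 1 library decides the call. The same held in each single knockdown (edgeR adjusted p = 0.0451 for NELFE and 0.0244 for NELFB without that library).

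HSPA5 encodes BiP, the HSP70 of the endoplasmic reticulum (chr9:125234853-125241382, minus strand). It was 383, 539 and 505 CPM in the control libraries and 488 to 523 CPM in the 5 knockdown libraries, which overlapped the control range. Its log2 fold change was 0.10 (95% interval -0.11 to 0.31, edgeR adjusted p = 0.464), and it turned to -0.0342 without control replicate 1.

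HSPH1 encodes HSP110, the nucleotide exchange factor (chr13:31134973-31162388, minus strand), and DNAJB1 the HSP40 that starts the HSP70 cycle (chr19:14514769-14560391, minus strand). HSPH1 was 368, 569 and 718 CPM in the control libraries, 443, 450 and 688 CPM in the NELFE knockdown libraries, and 495 and 543 CPM in the NELFB knockdown libraries. DNAJB1 was 81.7, 112 and 138 CPM in the control libraries, 98.0, 98.9 and 148 CPM in the NELFE knockdown libraries, and 111 and 111 CPM in the NELFB knockdown libraries. In both genes the third libraries of the control and NELFE knockdown groups were the highest, and control replicate 1 was the lowest. The log2 fold change was -0.07 (edgeR adjusted p = 0.826) for HSPH1 and 0.04 (edgeR adjusted p = 0.880) for DNAJB1. Both signs turned when single libraries were left out, to 0.16 for HSPH1 without control replicate 3, and for DNAJB1 to -0.14 without control replicate 1 and -0.0797 without NELFE knockdown replicate 3. HSPH1 and DNAJB1 thus did not pass the test in the comparison in which HSPA1A and HSPA1B rose.

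HSP90AA1 encodes the inducible cytosolic HSP90 (chr14:102080742-102139699, minus strand) and was the member that fell. It was 3075, 3815 and 4562 CPM in the control libraries, 2363, 2334 and 3187 CPM in the NELFE knockdown libraries, and 2877 and 2946 CPM in the NELFB knockdown libraries. NELFE knockdown replicate 3 was above control replicate 1, so the groups overlapped, and the other 4 knockdown libraries were below all control libraries. The log2 fold change was -0.48 ± 0.13 (SE, edgeR adjusted p = 0.0210) in the combined comparison, -0.54 in NELFE knockdown (edgeR adjusted p = 0.0390) and -0.39 in NELFB knockdown (edgeR adjusted p = 0.133). The combined call was lost without control replicate 2 (edgeR adjusted p = 0.0668), without control replicate 3 (0.102), without NELFE knockdown replicate 1 (0.0504) and when no filter on low counts was applied (0.0534). In NELFE knockdown it held in 2 of 8 such fits, those without control replicate 1 and without NELFE knockdown replicate 3, and it was lost on the control and NELFE libraries alone (edgeR adjusted p = 0.0707). In NELFB knockdown it passed the threshold without control replicate 1 (edgeR adjusted p = 0.0313) and with no filter (0.00179).

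The small heat shock proteins differed from each other. HSPB1, which encodes HSP27 (chr7:76302673-76304295, plus strand), was 136, 114 and 145 CPM in the control libraries, 117, 97.7 and 128 CPM in the NELFE knockdown libraries, and 123 and 138 CPM in the NELFB knockdown libraries. The groups overlapped and the log2 fold change was -0.12 (95% interval -0.36 to 0.11, edgeR adjusted p = 0.426). HSPB1 was the only one of the 10 genes in which control replicate 1 was above its group mean.

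CRYAB encodes alpha-B crystallin, a small heat shock protein abundant in the eye lens and in muscle (chr11:111908564-111923722, minus strand). It was 0.441, 4.57 and 9.89 CPM in the control libraries, 29.5, 23.0 and 177 CPM in the NELFE knockdown libraries, and 138 and 81.0 CPM in the NELFB knockdown libraries. All knockdown libraries were above all control libraries, but the spread within groups was wide, with 11 to 226 reads in the control libraries and 535 to 3809 reads in the knockdown libraries. CRYAB rose 18.3-fold in the combined comparison (log2 fold change 4.19 ± 1.16 (SE), 95% interval 1.40 to 6.99, edgeR adjusted p = 0.0420). Its single-knockdown log2 fold changes of 3.96 (NELFE, edgeR adjusted p = 0.0761) and 4.48 (NELFB, edgeR adjusted p = 0.0536) did not pass the threshold. DESeq2 called it in both (DESeq2 adjusted p = 0.00977 and 0.00707), as did edgeR when only genes with at least 10 counts in every library were tested (edgeR adjusted p = 0.0431 and 0.0286), and edgeR on the control and NELFB libraries alone called it in NELFB knockdown (edgeR adjusted p = 0.0215). The combined call held without NELFE knockdown replicate 1 or 2 and was lost without any other single library, with edgeR adjusted p from 0.0579 (without NELFE knockdown replicate 3) through 0.0609 (NELFB knockdown replicate 2), 0.0738 (NELFB knockdown replicate 1), 0.0756 (control replicate 3) and 0.0882 (control replicate 1) to 0.131 (control replicate 2), and the log2 fold change then lay between 3.63 and 5.20. It was also lost with no filter on low counts (edgeR adjusted p = 0.0753). Without NELFE knockdown replicate 3, the NELFE log2 fold change was 2.42, and the NELFB value was called (edgeR adjusted p = 0.00840), as it was without NELFE knockdown replicate 2 (0.0405). Over the fits that each left out 1 library, CRYAB ranged from 2.42 to 4.97 in NELFE and from 3.92 to 5.49 in NELFB knockdown. HSPB2, the small heat shock gene whose canonical start lies 964 bases away on the opposite strand, had 0 to 2 reads in each library. Gene models of HSPB2 overlap 13.6% of the CRYAB exon bases, where reads without strand could not be counted for either gene.

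HSPB8 encodes HSP22, a small heat shock protein that works with the cochaperone BAG3 in selective autophagy (chr12:119171555-119224855, plus strand). It was 0.160, 0.222 and 0.657 CPM in the control libraries, 0.582, 0.387 and 1.12 CPM in the NELFE knockdown libraries, and 1.49 and 0.940 CPM in the NELFB knockdown libraries, from 4 to 36 reads. Both NELFB knockdown libraries were above all control libraries, and NELFE knockdown replicates 1 and 2 were below control replicate 3. HSPB8 rose 3.52-fold in NELFB knockdown (log2 fold change 1.82, 95% interval 0.58 to 3.05, edgeR adjusted p = 0.0451), and its log2 fold change was 1.00 in NELFE knockdown (edgeR adjusted p = 0.257) and 1.39 in the combined comparison (edgeR adjusted p = 0.0701). Leaving out 1 library at a time, these log2 values ranged from 1.43 to 2.65 (NELFB), 0.50 to 1.83 (NELFE) and 1.03 to 2.22 (combined). The NELFB call was lost without control replicate 1 (edgeR adjusted p = 0.0812), control replicate 2 (0.132), NELFE knockdown replicate 1 (0.0620), NELFB knockdown replicate 1 (0.308) or NELFB knockdown replicate 2 (0.0923). The combined value passed the threshold without control replicate 3 (edgeR adjusted p = 0.0248), without NELFE knockdown replicate 2 (0.0402) and with no filter on low counts (0.0174).

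The knockdowns of NELFE and NELFB were then set against each other. None of the 10 genes was called by edgeR, by DESeq2, or at an unadjusted edgeR p under 0.05, where 0.315% of all genes tested (53 of 16852) were called. The log2 difference, NELFE minus NELFB, was -0.10 for HSPA1A (95% interval -0.50 to 0.30), 0.06 for HSPA1B (-0.28 to 0.39), -0.15 for HSP90AA1 (-0.52 to 0.23), -0.82 for HSPB8 (-1.95 to 0.31) and -0.52 for CRYAB (-3.14 to 2.10). A call in one knockdown and not in the other, as for HSP90AA1 and HSPB8, is therefore not a shown difference between them. The intervals of CRYAB and HSPB8 leave room for differences of more than 2-fold in either gene.

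Across the 8 libraries several of the 10 genes moved together, described here by Pearson's r of log2 CPM, over points that share depth and group. HSPA8, HSPH1 and DNAJB1 followed each other, with r = 0.94 between HSPA8 and HSPH1 and 0.97 between HSPH1 and DNAJB1. HSPA1A followed HSPA1B (0.98), CRYAB (0.97) and HSPB8 (0.85), and CRYAB followed HSPB8 (0.91). HSPA1A was weakly related to HSPA8 (0.16), the constitutive gene of its family, and HSP90AA1 ran with HSPA8 (0.75) and opposite to HSPA1B (-0.46). HSPA5 was related alike to HSPA1A (0.63), CRYAB (0.69), HSPA8 (0.68), HSPH1 (0.70) and DNAJB1 (0.69), and HSPB1 had its highest value, 0.61, with HSP90AA1. Over 12792 other genes (12793 for HSPB8, itself below the minimum), all with a mean level of 1 or more in log2 CPM, those with patterns most like HSPA1A were ID3 (0.99), DHRS2 (0.98) and KAT2B (0.98). For HSPA1B they were ID3 (0.99), OSBPL6 (0.98) and PTPN23-DT (0.98). For CRYAB they were NFE2L2 (0.99), RYBP (0.99) and LMO4 (0.99). HSPB8 was most like ENTREP1 (0.99), ENSG00000282057 (0.99) and LIMCH1 (0.99), and HSP90AA1 most like PATL1 (0.99), WBP11 (0.98) and AGFG1 (0.98).

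The rest of the chaperone system was described from lists that leave the 10 genes out, with the background shares of 13.3% higher and 12.7% lower in the combined comparison (edgeR). Of 9 other HSP70 and HSP110 genes tested (11 listed), 1 was called higher and 3 lower. HYOU1, an HSP110 of the endoplasmic reticulum, rose (log2 fold change 0.23), and HSPA1L (-0.55), HSPA12A (-0.37) and HSPA4L (-0.35), a cytosolic HSP110, fell. The calls of HSPA12A and HSPA4L held in all 8 fits that each left out 1 library, and that of HYOU1 in 2. The strictly inducible HSPA6 had 1 to 9 reads in each library and was not tested. Of 14 DNAJ genes tested (15 listed), 5 were called higher and 1 lower. DNAJB13, a DNAJ protein of sperm flagella and cilia, rose from 1.04, 0.621 and 0.700 CPM in the control libraries to 2.45 to 3.16 CPM in the knockdown libraries (log2 fold change 1.81, edgeR adjusted p = 3.52e-04). DNAJB9, an HSP40 of the endoplasmic reticulum, rose by a log2 fold change of 0.64 and DNAJB4 by 0.51, while DNAJA3, a mitochondrial HSP40, fell (-0.45). These 4 DNAJ calls held in all 8 fits that each left out 1 library.

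HSP90AA1 was not the only HSP90 gene that fell. Of the 5 other HSP90 and mitochondrial chaperonin genes, 3 were called lower and 0 higher, with 1 higher at an unadjusted p under 0.05 and 0 by DESeq2. That gene was HSP90B1, the HSP90 of the endoplasmic reticulum, with 1261, 1479 and 1371 CPM in the control libraries and 1481 to 1608 CPM in the knockdown libraries (log2 fold change 0.18, edgeR adjusted p = 0.0864). HSP90AB1, the constitutive cytosolic HSP90, was 2703, 3100 and 3423 CPM in the control libraries and 2242 to 2846 CPM in the knockdown libraries. Its log2 fold change was -0.31 (edgeR adjusted p = 0.0309), and the call held in 2 of 8 fits that each left out 1 library. TRAP1, the mitochondrial HSP90, fell in a way that held in all 8 such fits (log2 fold change -0.38, edgeR adjusted p = 0.00214), and HSPD1, the mitochondrial HSP60, had -0.28 (edgeR adjusted p = 0.0494, 2 of 8 fits). Of the 22 cochaperones, 4 were called lower (HSPA4L, HSPBP1, BAG4 and BAG6, log2 fold changes -0.35 to -0.18). None was called higher by edgeR, at an unadjusted p under 0.05, or by DESeq2. The calls of HSPBP1, BAG4 and BAG6 held in 1 or 2 of 8 such fits.

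The small heat shock genes besides HSPB1, HSPB8 and CRYAB were mostly too low to test, with 3 of 8 tested. HSPB3, a muscle small heat shock protein, was at 1, 3 and 4 reads in the control libraries, 6, 11 and 48 reads in the NELFE knockdown libraries, and 44 and 18 reads in the NELFB knockdown libraries. It passed the filter on low counts only through the knockdown libraries, so it could not have been called lower. It was called higher in the combined comparison (log2 fold change 3.21, edgeR adjusted p = 0.0209, 5 of 8 fits), and its libraries ranked much like those of CRYAB, with NELFE knockdown replicate 3 and NELFB knockdown replicate 1 the highest. HSPB9 (0.64) and HSPB11 (-0.20) were not called.

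Genes that act upstream of the heat shock genes, or are regulated beside them, did not move in one direction. Of the 5 heat shock factors and regulators tested, 0 were called by edgeR, at an unadjusted p under 0.05, or by DESeq2. HSF1, the main stress-responsive factor, had a log2 fold change of -0.14 and HSBP1, which binds it, 0.03. Of 21 HSF1 targets other than the 10 genes, 3 were called higher (DNAJB4, SQSTM1 and DNAJB6, log2 fold changes 0.42 to 0.51) and 4 lower (HSPA1L, HSPA4L, HSP90AB1 and HSPD1), several of which also stand in the lists above. Over all genes tested, 13.3% were called higher and 12.7% lower, so these counts are not read as a trait of the list. BAG3, a stress-inducible HSF1 target, was 42.7, 45.0 and 48.0 CPM in the control libraries and 41.6 to 54.1 CPM in the knockdown libraries. Of 22 genes of the unfolded protein response besides HSPA5, 3 were called higher and 3 lower, to be read against the same shares. DDIT3, the stress factor CHOP (-0.80), XBP1, a transcription factor of this response (-0.73), and SDF2L1, an endoplasmic reticulum cochaperone (-0.47), fell, and DNAJB9 (0.64) rose. These calls, and those of SQSTM1 and DNAJB6, held in all 8 fits that each left out 1 library.

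Some markers of other cell types and some immediate early genes were called higher in the combined comparison, as CRYAB was, and their part in its change was not tested. Of 15 immediate early genes, 5 were called higher in the combined comparison (background 13.3%), 2 in NELFE knockdown (background 7.92%) and 10 in NELFB knockdown (background 10.6%). In the test of NELFE against NELFB, edgeR called 0 of the 15, with 10 lower in NELFE at an unadjusted p under 0.05 and 3 lower by DESeq2. FOS, a rapidly induced transcription factor, was at 4.04, 3.90 and 1.05 CPM in the control libraries and 33.8, 70.2, 7.26, 99.1 and 124 CPM in the knockdown libraries. FOS was low in NELFE knockdown replicate 3, the library in which CRYAB was highest. The others among the leading 4 were EGR3 (log2 fold change 1.87), FOSB (1.44) and ZFP36 (0.79). Leaving out 1 library at a time, the calls held in 3 of 8 fits for FOS, 7 for EGR3, 5 for FOSB and 6 for ZFP36. Of the mesenchymal and smooth muscle markers, 6 of 12 were tested and 3 called higher. ANKRD1, a muscle and stretch-responsive gene, was 0.160, 1.06 and 4.16 CPM in the control libraries, 13.8, 9.51 and 104 CPM in the NELFE knockdown libraries, and 117 and 60.2 CPM in the NELFB knockdown libraries. The order of its libraries was close to that of CRYAB. TAGLN, a smooth muscle actin-binding protein (3.06), and COL3A1, a fibrillar collagen (5.45), were also called higher, while VIM (0.0069) and COL1A1 (-0.13) were not called. The calls held in 2 of 8 such fits for ANKRD1, 4 for TAGLN and 5 for COL3A1. COL3A1, with 5 to 7 control reads, passed the filter on low counts only through the knockdown libraries.

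The summed level of the mesenchymal list was 363, 425 and 489 CPM in the control libraries, 397, 400 and 674 CPM in the NELFE knockdown libraries, and 654 and 527 CPM in the NELFB knockdown libraries, with VIM the most abundant gene in each. No gene of that list was at 0 in all libraries. Of the epithelial markers, 2 of 3 tested were called higher, KRT8 (1.65) and KRT18 (0.56), with a summed level of 31.5 to 34.1 CPM in control and 37.1 to 75.1 CPM in knockdown libraries, KRT18 the most abundant and KRT19 at 0 in all. Of the neural markers, 3 of 5 tested were called higher, DCX (3.05), MAP2 (1.54) and NES (1.11), and SOX2 (-0.0163) and TUBB3 (-0.37) were not called, with a summed level of 703 to 1241 CPM in control and 773 to 1390 CPM in knockdown libraries, SOX2 the most abundant and NEUROD1 at 0 in all. The blood marker CD34 had 1 to 3 reads in the control libraries and 6 to 67 reads in the knockdown libraries and was called higher. It passed the filter on low counts only through the knockdown libraries, so it could not have been called lower. No other of the 10 blood markers had enough reads to be tested. DCX and MAP2 were called in all 8 fits that each left out 1 library, KRT8 and NES in 7, and KRT18 and CD34 in 6. In the comparison in which HSPA1A, HSPA1B and CRYAB were called higher, 13.3% of all genes tested were called higher. Calls among genes of several unrelated lists therefore say nothing particular about HSPA1A, HSPA1B and CRYAB.

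**Figure D4:**
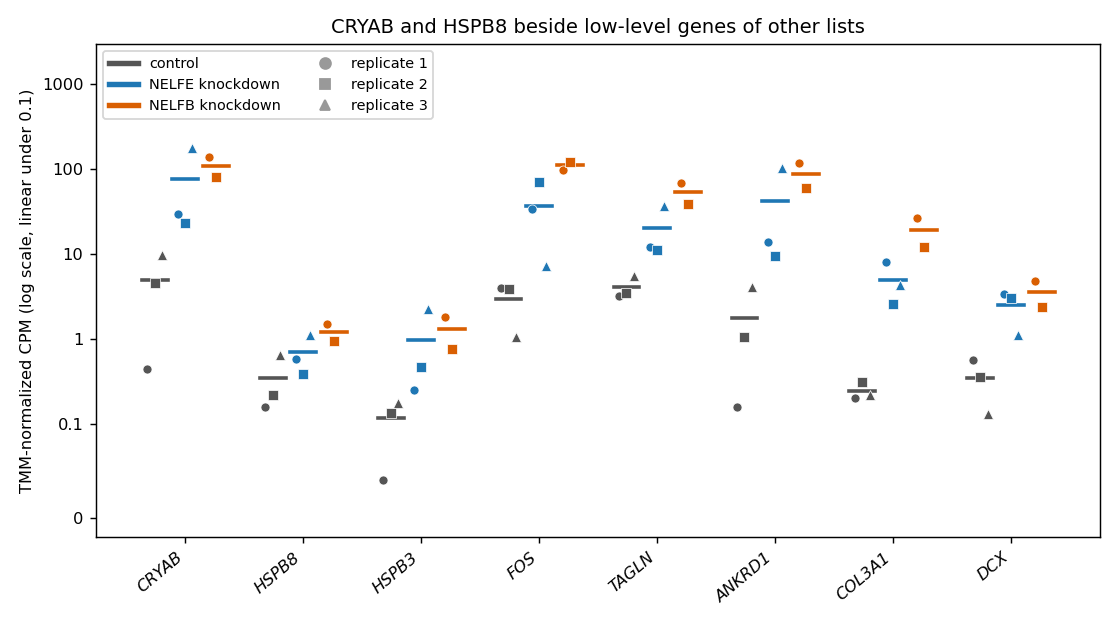
TMM-normalized CPM of CRYAB, HSPB8 and HSPB3 beside FOS, TAGLN, ANKRD1, COL3A1 and DCX, on an axis that is logarithmic above 0.1 and linear below; each point is 1 library, colored by group and shaped by replicate number, with bars at group means. NELFE knockdown replicate 3 was the highest NELFE library in CRYAB, HSPB8, HSPB3, TAGLN and ANKRD1, and the lowest in FOS and DCX.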

How the data were processed

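The authors deposited raw counts per gene, 1 column per library, from single-end 65-base reads that STAR 2.5.4a assigned without strand to Gencode v24 genes on GRCh38, after FastQC 0.11.6. Only uniquely aligned reads were counted, so reads common to near-identical genes are missing. The study calls the replicates independent biological replicates. Symbols, lengths and positions came from GENCODE v44 on GRCh38, matched by Ensembl identifier (97.4% of genes with reads), promoters from RefSeq (where several were listed, the window nearest the start of the canonical transcript). edgeR 4.0.16 under R 4.3.3 (robust quasi-likelihood fit after filterByExpr and TMM) tested each gene, which was called at a Benjamini-Hochberg adjusted p under 0.05 over all genes tested, in a fit of knockdown against control and a model of the 3 groups. DESeq2 1.42.0, DESeq2 size factors, no filter, at least 10 counts per library, a prior count of 2, a replicate block, fewer libraries and leaving out each library were alternatives. The fits were tested on simulated data. Intervals cover 95%. CPM uses TMM-scaled totals; TPM divides by merged exon length; the canonical transcript length was an alternative chosen after seeing the data.

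Named were the 10 genes, the guide targets, at most 4 called genes per list with the largest change (where under 2 were called, up to 2 others with the highest mean CPM), and, for called members, the 3 genes with the highest r. HSPA6, BAG3, HSPB2, PTPRC, HBG1, MPO, HSP90B1, COL1A1, TUBB3, KRT19, NEUROD1, MANF, ACTA2 and most abundant markers were named outside this rule, after their values were seen. The members and lists were chosen with earlier results of these data known.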

Additional observations from a re-analysis of the deposited data

Results flagged for a closer look

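No labelled group held 4 or more libraries, the number set for flagging an outlier, so no library was flagged as one within its group. Deviations of single libraries from their group means are given above. The tested difference between the knockdowns passed the threshold for 2 genes of the lists, of which neither is one of the 10 heat shock genes. MANF, a protein of the unfolded protein response, was 72.1, 85.2 and 92.5 CPM in the control libraries, 76.3, 75.1 and 93.4 CPM in the NELFE knockdown libraries, and 48.7 and 44.6 CPM in the NELFB knockdown libraries, and NELFE minus NELFB was 0.81 on the log2 scale (edgeR adjusted p = 0.0325). ACTA2, smooth muscle actin, was 1.40 to 2.17 CPM in the control libraries, 2.58 to 3.70 CPM in the NELFE knockdown libraries, and 14.5 and 12.0 CPM in the NELFB knockdown libraries, and NELFE minus NELFB was -1.998 (edgeR adjusted p = 0.00129).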

How the results depend on the processing

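The rise of HSPA1A and HSPA1B in the combined comparison kept its call under every alternative run. Among single genes, 932 alternative values kept direction and side of the threshold, 131 lost the call, 21 gained it and 25 changed sign. DESeq2 scaling moved the median of all genes by less than 0.02. HSP90AA1 was the member called lower in the combined comparison, and with no filter on low counts 0 were; in NELFE knockdown, 0 were with its own libraries only; in NELFB knockdown, 1 was with no filter.

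The labels do not say whether libraries with the same replicate number share a day or batch, and the numbers were not taken to pair them, since not every r was above 0.1. Same-numbered control and NELFE libraries deviated together with r of 0.35, 0.07 and 0.55, control and NELFB libraries with -0.03 and -0.02, and NELFE and NELFB libraries with 0.11 and 0.25. NELFE knockdown replicate 2 correlated better with control replicate 1 (0.29) than with control replicate 2. Control replicate 1 had -0.44 with NELFE knockdown replicate 3, and control replicate 3 had -0.39 and -0.40 with NELFE knockdown replicates 1 and 2. The 2 NELFB libraries deviate from their mean by equal and opposite amounts, so their values are not separate from each other. With a replicate block, 2408 genes were higher and 2355 lower in NELFE knockdown (1334 and 1186 without it). In NELFB knockdown 2312 were lower (1497 without it), and in NELFE against NELFB 69 were higher and 126 lower (40 and 13 without it). CRYAB was then called in both knockdowns (3.80, edgeR adjusted p = 0.0174, and 5.77, edgeR adjusted p = 0.00681) and HSPB8 in the combined comparison (1.55, edgeR adjusted p = 0.0249), and HSPH1 changed sign (0.0325 combined, 0.17 NELFB), as did HSPB1 (0.0762 NELFB).

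DNAJB1 in NELFB knockdown was -0.0034 with DESeq2 and -0.0043 with no filter. Between the knockdowns, 40 genes were higher and 13 lower; the lower count was 36 with DESeq2, 8 with at least 10 counts and 8 with own libraries only, and with no filter the counts were 66 and 95. Of the immediate early genes, DESeq2 called 8 higher in the combined comparison, edgeR 5. The causes were not tested. By unique 65-base positions of the canonical transcript, control levels were 386 TPM for HSPA1A, 260.2 for HSPA1B, 6193 for HSPA8, 542 for HSPA5, 438 for HSPH1, 209 for DNAJB1, 5771 for HSP90AA1, 859 for HSPB1, 0.784 for HSPB8 and 28.6 for CRYAB. By canonical length alone, they were 5293 TPM for HSPA8, 496 for HSPA5, 429 for HSPH1, 201 for DNAJB1, 4831 for HSP90AA1, 692 for HSPB1, 0.756 for HSPB8 and 26.01 for CRYAB.

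Leaving out 1 library at a time, genes called higher ranged from 1360 to 2526 (combined), 561 to 1620 (NELFE), 380 to 2218 (NELFB) and 24 to 47 (NELFE against NELFB), and genes called lower from 1328 to 2599, 429 to 1503, 223 to 2098 and 2 to 34. Of the 10 genes, 2 to 4, 1 to 2 and 0 to 4 were called higher and 0 to 2, 0 to 2 and 0 to 2 lower. Log2 fold changes that changed sign ranged, in the combined comparison, from -0.0342 to 0.20 (HSPA5), -0.30 to 0.16 (HSPH1), -0.14 to 0.23 (DNAJB1) and -0.0505 to 0.0946 (HSBP1); in NELFE knockdown, from -0.48 to 0.0059 (HSPA8), -0.0506 to 0.18 (HSPA5), -0.31 to 0.17 (HSPH1) and -0.16 to 0.25 (DNAJB1); and in NELFB knockdown, from -0.0099 to 0.22 (HSPA5), -0.31 to 0.15 (HSPH1), -0.17 to 0.20 (DNAJB1) and -0.11 to 0.0606 (HSPB1). The lowest counts of genes called in NELFB knockdown against control came from a fit with 1 NELFB library, whose spread is assumed to be that of the other groups.

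Counts of 4 to 36 reads limit HSPB8, and 1 to 48 reads HSPB3. In the combined comparison, the call of CRYAB held in 2 and that of HSP90AA1 in 5 of 8 fits that each left out 1 library.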
